A study of Gallus gallus with 8 samples.

Results

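Chicken keratinocytes, the main cells of the epidermis, were compared at 2 densities in flat culture: before the cells had closed into a continuous sheet (subconfluent, 1 library) and after they had done so (confluent monolayer, 3 libraries). These 4 libraries were chosen by their labels from the 8 of the series, which also holds 3 libraries of keratinocytes in skin equivalents (layered 3-dimensional cultures) and 1 library of confluent fibroblasts. All cells were primary cells of Gallus gallus, and the labels give no strain, age or treatment. The titles carry the code 20 for the subconfluent library and the codes 20, 34 and 56 for monolayers 1, 2 and 3, and the number 8 after a d for the monolayers, with no such number for the subconfluent library. The titles of monolayers 2 and 3 also carry the letters wo, which the others lack. The labels do not explain the codes, the numbers or these letters. They do not say if the monolayers came from different birds or cultures. The p-values therefore measure the spread between libraries, which may be technical, and a difference in time in culture cannot be told apart from a difference in density.

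In the epidermis, dividing keratinocytes sit on the basement membrane and build their filaments mainly from the basal keratins, a type II keratin such as KRT5 paired with a type I keratin such as KRT14 or KRT15. As they leave that layer they switch to other keratins and begin to make the proteins of the cornified layer. Many of these proteins are encoded in a single gene cluster, the epidermal differentiation complex (EDC), which in birds also holds corneous beta-proteins (CBP), the building material of scales, claws, beak and feathers. Keratinocytes in culture stop dividing and begin parts of this programme when they meet their neighbours.

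Gene counts totalled 36728801 in the subconfluent library and 27940842, 30062632 and 30533216 in monolayers 1 to 3. Levels are given as CPM, counts scaled to a common library size with TMM, which corrects for differences in RNA composition, and errors are SD over the 3 monolayers. Of the 24902 features counted, 143 carry a gene name set by the authors, nearly all of them keratins, EDC genes and corneous beta-proteins, and 24759 carry only an Ensembl identifier that could not be paired with a name here. Genes of the cell cycle, of cell adhesion or of other cell types were therefore not analysed here. The tables keep fragments that map to several places in a row apart from the genes, while the submitters' processing notes also name RSEM, which shares such fragments out, with no role given. Values of near-identical family members are therefore uncertain.

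Log2 fold changes of the tested features, subconfluent over monolayer, had a median of 0.00 and quartiles of -0.72 and 0.63. Their 5% and 95% quantiles were -2.73 and 1.66. Of the features with a mean of at least 1 CPM over the 4 libraries, 39.7% lay above every monolayer and 35.5% below. The rank correlation with the subconfluent library over 15019 features was 0.919, 0.953 and 0.944 for monolayers 1, 2 and 3, against 0.962, 0.966 and 0.994 among the monolayers, with depth and gene length shared by all points. Of the features with at least 100 counts in the subconfluent library, 94 of 10154 (0.926%) were at least 4-fold above the highest monolayer, and 10 of them were at least 10-fold above it. Of those with at least 100 counts in every monolayer, 232 of 9604 (2.42%) were at least 4-fold below the lowest monolayer, 78 of them at least 10-fold. The ratios nearest to this 4-fold limit were 4.010 inside and 3.943 outside for higher features, and 4.010 inside and 3.996 outside for lower ones. All 11 named features past the limit were higher in subconfluent cells, and 0 were lower. Only 47 of the 143 named features had a mean of at least 1 CPM over the 4 libraries. Fewer had 100 counts in every monolayer and could pass as lower. With a share of 2.42% over all features, 0 among so few has little meaning.

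**Figure D1:**
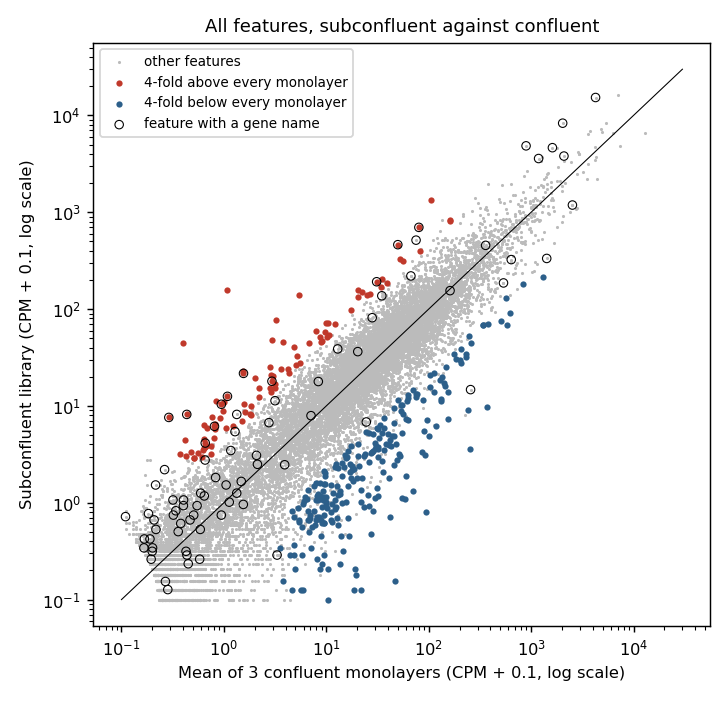
Level of each feature with a mean of at least 0.1 CPM over the 4 libraries, in the subconfluent library (vertical axis, CPM + 0.1, log scale) and as the mean of the 3 confluent monolayers (horizontal axis, CPM + 0.1, log scale), with the line of equal levels. Red points mark the 94 features 4-fold above every monolayer and blue points the 232 that are 4-fold below. Open circles mark named features, which lie mostly above the line.

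The edgeR quasi-likelihood test, with the spread taken from the replicated groups, called 200 of 15019 features (1.33%) at an adjusted p of 0.05, of which 91 were higher (0.606%) and 109 lower (0.726%) in subconfluent cells. The test assumes that the single subconfluent library varies like the replicated groups, and there is no replicate check on it. The replicated groups are the monolayers and the skin equivalents, so a feature that varies among skin equivalents has a wide error here. Krt5L2 had a standard error of 1.04 on its log2 fold change. Its levels were 4561, 4308 and 3901 CPM in monolayers 1 to 3, but 331, 1254 and 91.6 CPM in skin equivalents 1 to 3. The calls rested on which libraries entered: 0 were higher and 1 was lower without monolayer 2, 0 and 0 without monolayer 3, and 270 and 413 without monolayer 1, while unadjusted p-values under 0.05 numbered 2938, 2357 and 4098 in the same order and 3520 with all libraries. Scaling by total count shifted the median log2 fold change over features to -0.14, against 0.00 with TMM, and gave 34 higher and 97 lower features, or 26.0% of calls higher against 45.5% with TMM. Among 117 named features in the test, 2 rose in subconfluent cells and 0 fell, and 115 had no call, where DESeq2 called 16 higher and 5 lower, so the descriptions below rest mainly on the values in each library. Over all features DESeq2 called 623 of 13356 higher and 1201 lower, far more than edgeR, and its counts below stand against these. Among named features with a mean of at least 1 CPM over the 4 libraries, 31 of 47 lay above every monolayer and 7 below every monolayer. The shares over all 11687 features at that level were 39.7% above and 35.5% below. That mean includes the subconfluent library, here as over all features, so a feature could enter through a high level there. Among those above every monolayer, CBP58-K, CBP55-S, EDCH2-EDC, EDCH3-EDC, EDCH4-EDC, EDbeta-EDC and CRNN-EDC did so, with monolayer means under 1 CPM. CBP58-K had 7.51 CPM against a monolayer mean of 0.190 CPM.

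The basal-type keratins were the most abundant named genes of subconfluent cells. The Krt5L, Krt14L and Krt15 features together took 4.10% of gene counts in subconfluent cells, against 1.08%, 1.58% and 1.39% in monolayers 1 to 3, which was 3.04 times the monolayer mean. All 6 with a measurable level were higher in the subconfluent library than in every monolayer. Over all features with a mean of at least 1 CPM over the 4 libraries, 39.7% lay above every monolayer. edgeR called 0 of these 6 keratins. DESeq2 called 3 higher, Krt14L1 (adjusted p = 0.000506), Krt14L2 (0.0198) and Krt5L1 (0.0307), where it called 623 of 13356 features higher over all.

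Among the type II members, Krt5L2 had 15307 CPM in subconfluent cells, against 4561, 4308 and 3901 CPM in monolayers 1 to 3 (log2 fold change 1.85 ± 1.04, SE, edgeR adjusted p = 0.318). It had rank 2 by count in the subconfluent library and rank 10 in each monolayer. Krt5L1 reached 8312 CPM, against 841, 2741 and 2515 CPM in monolayers 1 to 3, so the monolayers themselves differed and monolayer 1, with the title code of the subconfluent library, lay farthest from it. By count Krt5L1 had rank 3 in the subconfluent library and ranks 176, 24 and 24 in the monolayers. Krt5L3 had 4849 CPM in subconfluent cells and 738, 1253 and 686 CPM in monolayers, a ratio of 3.87 to the nearest monolayer (95% counting interval 3.83 to 3.91). Krt5L1-2 had 0 counts in subconfluent cells and 1, 2 and 0 counts in the monolayers.

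The type I partners differed by less. Krt14L1 had 4642 CPM in subconfluent cells, against 1379.9, 1729 and 1731 CPM in monolayers 1 to 3 (log2 fold change 1.52 ± 0.32, edgeR adjusted p = 0.0648). Krt14L2 had 3587 CPM in subconfluent cells and 858, 1490.5 and 1199.5 CPM in monolayers, each monolayer lying well below. Krt15, a keratin that marks the basal layer in mammals, had 3804 CPM in subconfluent cells, against 1792, 2357 and 2125 CPM in monolayers, a ratio of 1.61 to the nearest (log2 fold change 0.86 ± 0.33, edgeR adjusted p = 0.178). Counts of the Krt5L features divided by those of the Krt14L and Krt15 features gave 2.37 in subconfluent cells and 1.47 ± 0.0611 in monolayers (SD, n = 3), a ratio that does not depend on library scaling.

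**Figure D2:**
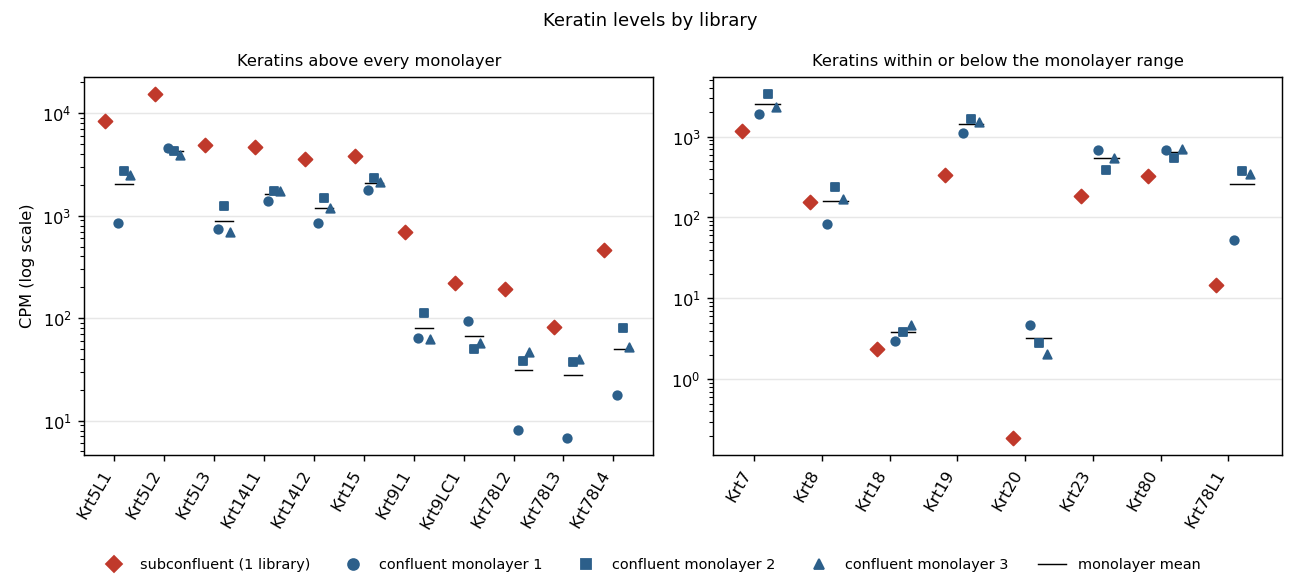
Levels of single keratins (vertical axis, CPM, log scale) in the subconfluent library (red diamonds) and in confluent monolayers 1 to 3 (blue circles, squares and triangles), with a line at the monolayer mean. Krt5L2 stands at 15307 CPM in subconfluent cells and at most 4561 CPM in a monolayer, while Krt19 stands at 333 CPM and at least 1116 CPM.

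Keratins known from simple, single-layered epithelia ran the other way. Krt7, Krt8, Krt18 and Krt19 together took 0.170% of gene counts in subconfluent cells, against 0.331%, 0.592% and 0.460% in monolayers 1 to 3. Of these 4, 3 were below every monolayer and Krt8 was within their range. Over all features with a mean of at least 1 CPM over the 4 libraries, 35.5% lay below every monolayer. edgeR called 0 of the 4 keratins, and DESeq2 called Krt19 lower (adjusted p = 0.0348). Krt19, the smallest type I keratin, had 333 CPM in subconfluent cells and 1116, 1637 and 1505 CPM in monolayers (log2 fold change -2.09 ± 0.86, edgeR adjusted p = 0.199). It was 3.35-fold lower than in the nearest monolayer, and the monolayers lay close together.

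Krt7, a type II keratin of glandular and ductal epithelia in mammals, had 1187 CPM in subconfluent cells and 1915, 3335 and 2339.8 CPM in monolayers, 1.61-fold lower than in the nearest. Krt18 was scarce, at 2.37 CPM in subconfluent cells against 2.93, 3.87 and 4.67 CPM in monolayers, and the counting interval of its ratio to the nearest, 0.594 to 1.10, included equality. Krt8, its usual partner in mammals, had 155 CPM in subconfluent cells and 82.2, 235 and 168 CPM in monolayers, so no direction can be given for Krt8. Its log2 fold change of -0.06 turned positive with limma-voom, without monolayer 2 and against monolayer 1 alone.

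Since the keratin groups lay on opposite sides, their quotient necessarily differs more than either group, and it is given as a description. For every count of a simple-epithelium keratin there were 24.1 counts of basal-type keratins in subconfluent cells, against 3.26, 2.66 and 3.03 in monolayers 1 to 3 (2.98 ± 0.303, SD, n = 3). In skin equivalents 1 to 3 the same quotient was 204, 299 and 299. These quotients compare libraries, since counts of different genes are not corrected for length. Within the keratins, Krt5L2 made up 34.5% of keratin counts in subconfluent cells and 24.3% ± 5.45 in monolayers, Krt5L1 18.7% and 10.9% ± 4.60, Krt7 2.67% and 14.0% ± 1.83, and Krt19 0.751% and 7.91% ± 0.429.

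**Figure D3:**
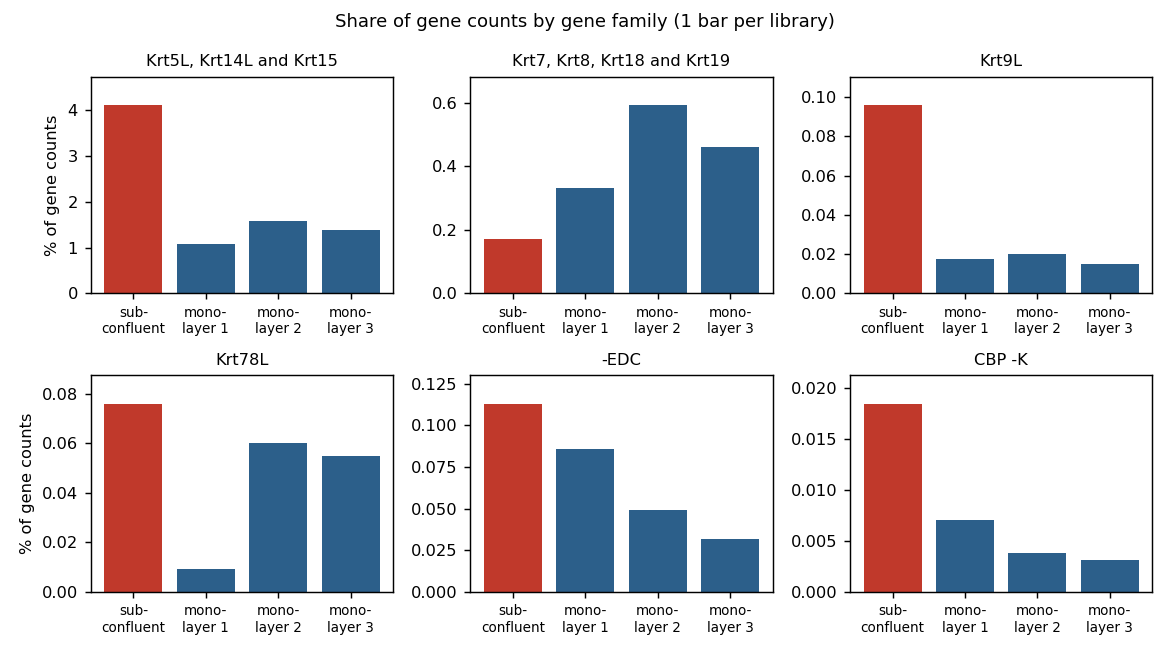
Share of gene counts (vertical axes, percent, each starting at 0) taken by 6 gene families in the subconfluent library (red bar) and in confluent monolayers 1, 2 and 3 (blue bars), 1 bar per library. The red bar is the tallest in every panel except that of Krt7, Krt8, Krt18 and Krt19, where it is the lowest at 0.170%.

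Krt20, Krt23 and Krt80 were also below every monolayer. Krt20, a type I keratin of the gut lining in mammals, was nearly missing from subconfluent cells, with 7 counts (0.188 CPM) against 141, 97 and 71 counts (4.75, 2.84 and 2.03 CPM) in monolayers 1 to 3. It was 10.8-fold lower than in the nearest monolayer (log2 fold change -4.06 ± 0.84, edgeR adjusted p = 0.0634), but its counts in monolayers 2 and 3 were too low for the 4-fold rule. Krt23, a type I keratin, had 186 CPM in subconfluent cells and 679.6, 387 and 545 CPM in monolayers. Krt80, a type II keratin found in many epithelia of mammals, had 324 CPM in subconfluent cells and 674, 549.8 and 694 CPM in monolayers, 1.70-fold lower than in the nearest. With DESeq2, Krt20, Krt23 and Krt80 were called as lower (adjusted p = 0.000134, 0.00206 and 0.00792).

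The Krt9L and Krt78L keratin families held members that stood far above the monolayers beside members that did not. They are named after KRT9, a keratin of human palm and sole, and KRT78. The Krt9L features took 0.0958% of gene counts in subconfluent cells, against 0.0175%, 0.0203% and 0.0150% in monolayers. Of the 7 members, at any level, 4 were above every monolayer and 2 passed the 4-fold rule. Some of the 7 had fewer than 100 counts in the subconfluent library and could not pass it. Of the 5 with a mean of at least 1 CPM, 3 were above, where the share over all features at that level was 39.7%. The 4-fold rule was passed as higher by 0.926% of all features with at least 100 counts in the subconfluent library. edgeR called 0 of the 7 members, and DESeq2 called Krt9L1 (adjusted p = 0.00260) and Krt9L2 (0.00599) higher. Krt9L1 carried most of the difference, with 698 CPM in subconfluent cells and 63.9, 113 and 62.7 CPM in monolayers, a ratio of 6.15 to the nearest (95% counting interval 5.95 to 6.36, log2 fold change 3.12 ± 0.72, edgeR adjusted p = 0.0709). Krt9L2 had 17.9 CPM in subconfluent cells and 3.10, 3.66 and 1.78 CPM in monolayers. Krt9LC1 had 8170 counts in subconfluent cells, against 2786, 1705 and 1986 counts in monolayers.

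Krt9L3, which dominated skin equivalents at 38733 ± 7124 CPM, was not part of this pattern. It had 7.83 CPM in subconfluent cells and 2.49, 10.4 and 8.08 CPM in monolayers, within their range. Krt9L1 had 2318 ± 1579 CPM in skin equivalents. Counts of Krt9L1 divided by those of Krt9L3 were 89.2 in subconfluent cells, against 25.6, 10.9 and 7.77 in monolayers and 0.0217, 0.112 and 0.0490 in skin equivalents.

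In the Krt78L family, Krt78L4 had 462 CPM in subconfluent cells and 17.6, 79.9 and 52.0 CPM in monolayers 1 to 3, 5.79 times the nearest (95% counting interval 5.56 to 6.03, edgeR adjusted p = 0.246). Krt78L2 had 191 CPM in subconfluent cells, against 8.18, 37.8 and 46.8 CPM in monolayers, and Krt78L3 had 81.4 CPM, against 6.77, 37.4 and 39.7 CPM. For all 3 the farthest library was monolayer 1, with ratios of 26.2 for Krt78L4 and 23.4 for Krt78L2. Krt78L1 lay on the other side, with 14.6 CPM in subconfluent cells and 52.7, 375 and 341 CPM in monolayers, and here monolayer 1 was the nearest. Its log2 fold change was -4.13 ± 1.29 (edgeR adjusted p = 0.120) and was called without monolayer 1 (-4.73, adjusted p = 0.0411). Krt78L1 was not called by edgeR without monolayer 2 or without monolayer 3. Of the 8 members, at any level, 4 were above every monolayer, 1 below, and 2 passed the 4-fold rule as higher. Some of the 8 had fewer than 100 counts in the subconfluent library and could not pass it as higher. Of the 5 with a mean of at least 1 CPM, 3 were above and 1 below. The shares over all features at that level were 39.7% above and 35.5% below. Of all features with at least 100 counts in the subconfluent library, 0.926% passed the 4-fold rule as higher. DESeq2 called Krt78L2 higher (adjusted p = 0.0211) and Krt78L1 lower (0.000405).

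Genes of the epidermal differentiation complex were mostly higher in subconfluent cells, from low levels. Names ending in -EDC together took 0.113% of gene counts in subconfluent cells, against 0.0855%, 0.0492% and 0.0317% in monolayers 1 to 3. Without EDPE-EDC the share was 0.0606% in subconfluent cells and 0.0829%, 0.0341% and 0.0240% in monolayers, within their range. Of 13 members with a mean of at least 1 CPM over the 4 libraries, 11 were above every monolayer and 0 below. The shares over all features at that level were 39.7% and 35.5%. That mean includes the subconfluent library, so members could enter through a high level there. EDCH2-EDC, EDCH3-EDC, EDCH4-EDC, EDbeta-EDC and CRNN-EDC did so, with monolayer means of 0.558, 0.334, 0.983, 0.556 and 0.709 CPM. All of these are among the 11 above every monolayer. Among all 31 tested members, at any level, 21 were above every monolayer and 2 below. Some of these rest on a few counts, and the share over all tested features was not taken, so this is a description only. edgeR called 1 of the 31 tested members higher and 0 lower, where it called 0.606% and 0.726% of all features. DESeq2 called 6 members higher and 0 lower, where it called 623 and 1201 of 13356 features over all. Of these 31, 4 had fewer than 10 counts over the 4 libraries, 2 of them 0 counts, and entered through the skin equivalents. The 4-fold rule was passed as higher by 4 of the 35 members. Many of the 35 had fewer than 100 counts in the subconfluent library and could not pass it as higher. Of all features with at least 100 counts in the subconfluent library, 0.926% passed it as higher. In the list of EDC genes by symbol, which holds 27 of these names, edgeR called 1 of 23 tested members higher and 0 lower.

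The member that rose was EDCH3-EDC, with 300 counts (8.07 CPM) in subconfluent cells and 16, 8 and 8 counts (0.539, 0.234 and 0.229 CPM) in monolayers 1 to 3. Its log2 fold change was 4.60 ± 0.67 (edgeR adjusted p = 0.0390), and its ratio to the nearest monolayer was 15.0 (95% counting interval 9.08 to 26.6). The call was lost without monolayer 2 (adjusted p = 0.116), without monolayer 3 (0.173), with limma-voom (0.0522), in a fit of only the 4 libraries (0.0816) and with the title code as a block (0.0748). EDCH4-EDC had 463 counts in subconfluent cells and 37, 23 and 36 counts in monolayers. EDCH2-EDC had 150 counts in subconfluent cells and 29, 14 and 10 counts in monolayers. Neither was called by edgeR (adjusted p = 0.0660 and 0.111), and both were called with DESeq2 (adjusted p = 0.000809 and 0.0204). All 3 had far higher levels in skin equivalents, at 729.8 ± 463, 1747 ± 1586 and 277 ± 231 CPM for EDCH3-EDC, EDCH4-EDC and EDCH2-EDC.

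Cornulin differed from these in the layered cultures, where it was nearly missing. CRNN-EDC, named after this fused S100-type protein of cornifying epithelia, had 225 counts (6.05 CPM) in subconfluent cells and 33, 22 and 13 counts (1.11, 0.645 and 0.372 CPM) in monolayers 1 to 3. It was 5.45 times as high as in the nearest monolayer (95% counting interval 3.77 to 8.11), with a log2 fold change of 3.09 ± 0.62 (edgeR adjusted p = 0.0588). It was called without monolayer 1 (adjusted p = 0.0406), with limma-voom (0.0361) and with DESeq2 (0.00859). It was not called without monolayer 2, without monolayer 3, in a fit of only the 4 libraries or with the title code as a block. Without monolayer 1, edgeR called 270 features higher over all, against 91 with it. In skin equivalents CRNN-EDC was at 0.154 ± 0.0372 CPM. SCFN-EDC, named after scaffoldin, a related protein known from the embryonic periderm and feather sheath of birds, had 16 counts in subconfluent cells and 0, 11 and 1 counts in monolayers, too few for a direction.

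EDPE-EDC was the most abundant member in subconfluent cells, at 515 CPM, against 24.0, 133 and 68.1 CPM in monolayers 1 to 3. Its ratio to the nearest monolayer, 3.86, was just under the 4-fold rule (log2 fold change 2.78 ± 0.70, edgeR adjusted p = 0.0823), and it was called without monolayer 1 (adjusted p = 0.0457). EDPE-EDC was not called by edgeR without monolayer 2 or without monolayer 3. The subconfluent level lay close to the 531 ± 87.8 CPM of skin equivalents. EDQL-EDC, by contrast, had 455 CPM in subconfluent cells and 665, 248 and 164 CPM in monolayers, within their range, and the sign of its log2 fold change of 0.34 turned without monolayer 3. LOR1-EDC, named after loricrin, the main protein of the mammalian cornified envelope, was near the limit of detection, with 9 counts in subconfluent cells and 3, 3 and 4 counts in monolayers. In skin equivalents LOR1-EDC had 982 ± 283 CPM.

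**Figure D4:**
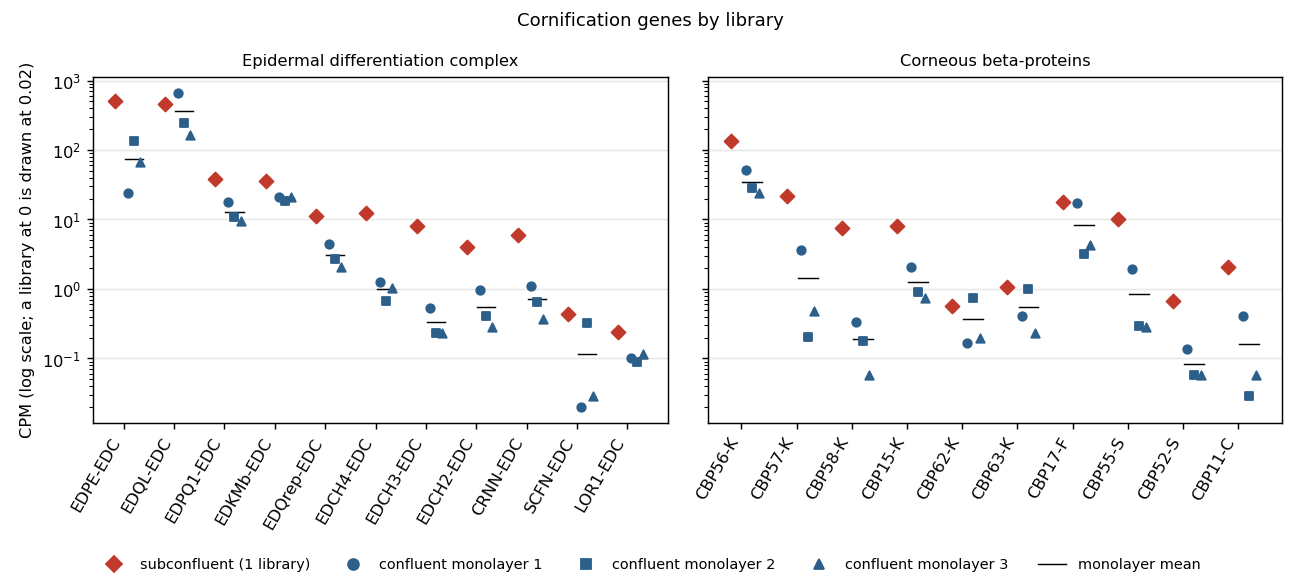
Levels of genes of the epidermal differentiation complex (left) and of corneous beta-proteins (right) in the subconfluent library (red diamonds) and in confluent monolayers 1 to 3 (blue circles, squares and triangles), as CPM on a log scale, with a line at the monolayer mean and a library at 0 drawn near the foot of the axis. CBP58-K stands at 7.51 CPM in subconfluent cells and at most 0.337 CPM in a monolayer, and EDQL-EDC lies within the monolayer range.

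Corneous beta-proteins of the -K names took 0.0185% of gene counts in subconfluent cells, against 0.00704%, 0.00385% and 0.00317% in monolayers 1 to 3. Of the 15 members, all tested, edgeR called 1 higher and 0 lower, where it called 0.606% and 0.726% of all features. DESeq2 called 3 members higher, CBP56-K (adjusted p = 0.0343), CBP58-K (6.42e-07) and CBP59-K (0.00756), where it called 623 of 13356 features higher over all. Fewer than 10 counts over the 4 libraries were found for 4 of the 15. CBP58-K rose, with 279 counts (7.51 CPM) in subconfluent cells and 10, 6 and 2 counts (0.337, 0.176 and 0.0573 CPM) in monolayers (log2 fold change 5.31 ± 0.84, edgeR adjusted p = 0.0410). Its ratio to the nearest monolayer was 22.3, with a 95% counting interval of 11.9 to 47.0. This call was lost without monolayer 2 (adjusted p = 0.125), without monolayer 3 (0.182), with limma-voom (0.0794), in a fit of only the 4 libraries (0.0905) and with the title code as a block (0.0819).

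CBP57-K, its neighbour in name, had 21.6 CPM in subconfluent cells and 3.67, 0.205 and 0.487 CPM in monolayers, so monolayer 1 was much nearer to the subconfluent library than the others. CBP57-K was called without monolayer 1 (log2 fold change 5.83, adjusted p = 0.0405, against 3.91 and 0.117 with it). It was not called without monolayer 2 or without monolayer 3. CBP56-K was the most abundant -K feature, at 137 CPM in subconfluent cells and 52.1, 28.4 and 23.7 CPM in monolayers (log2 fold change 1.98 ± 0.60, edgeR adjusted p = 0.114). CBP63-K and CBP62-K, which reached 10089.6 ± 2899 and 6358 ± 583 CPM in skin equivalents, were scarce here, with 40 and 21 counts in subconfluent cells. The monolayers had 12, 34 and 8 counts of CBP63-K and 5, 25 and 7 counts of CBP62-K.

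The -S, -C and -F names were scarce in both densities. CBP55-S was the exception among -S names, with 383 counts in subconfluent cells and 58, 10 and 10 counts in monolayers 1 to 3, 5.28 times the nearest (95% counting interval 4.0 to 7.08, edgeR adjusted p = 0.319). All -S names together had 470 counts in subconfluent cells and 79, 27 and 18 counts in monolayers. The -C names had 113 counts in subconfluent cells, 78 of them from CBP11-C, and 35, 7 and 6 counts in monolayers. CBP17-F, the only -F feature with a mean of at least 1 CPM, had 17.8 CPM in subconfluent cells and 17.4, 3.14 and 4.27 CPM in monolayers. It thus matched monolayer 1 and not the others, and it was called without monolayer 1 (log2 fold change 2.14, adjusted p = 0.0400). It was not called without monolayer 2 or without monolayer 3. Of the tested features, 12 of 18 -S names and 10 of 14 -C names had fewer than 10 counts over the 4 libraries, so few could show a difference. DESeq2 called CBP11-C higher (adjusted p = 0.0124), which edgeR did not (0.110).

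For each of CBP57-K, CBP58-K, CBP55-S, CBP11-C, CRNN-EDC, EDCH2-EDC and EDCH3-EDC, monolayer 1 was the highest of the monolayers. For the Krt78L2, Krt78L3 and Krt78L4 keratins, Krt5L1 and EDPE-EDC, monolayer 1 was the lowest. Monolayer 1 shares the title code 20 with the subconfluent library and lacks the letters wo that stand in the titles of monolayers 2 and 3. Against monolayer 1 alone, the log2 ratio was 3.91 for EDCH3-EDC, 4.48 for CBP58-K, 4.43 for EDPE-EDC and 3.30 for Krt5L1, in each case in the same direction as against all 3. Over all features, 129 were 4-fold above monolayers 2 and 3, of which 35 did not pass that fold over monolayer 1 and 3 were not above it at all. In the other direction 341 were 4-fold below monolayers 2 and 3, of which 109 did not pass that fold against monolayer 1 and 1 was not below it at all.

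IL36RN, IL1RN and EPPKL1 were called neither by edgeR nor by DESeq2. IL36RN, which in mammals blocks the interleukin-36 receptor, had 89 counts in subconfluent cells and 137, 10 and 41 counts in monolayers, a spread between monolayers that covers the subconfluent value, and its log2 fold change of 0.25 turned negative without monolayer 2 or 3. IL1RN, named after the interleukin-1 receptor antagonist, had 43 counts in subconfluent cells and 25, 13 and 9 counts in monolayers (edgeR adjusted p = 0.301), and the counting interval of its ratio to the nearest monolayer, 0.821 to 2.35, included equality. EPPKL1, named as an epiplakin-like gene, had 16 counts in subconfluent cells and 9, 22 and 18 counts in monolayers, within their range.

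Features without a gene name made up 83 of the 94 higher and all 232 lower features past the 4-fold rule. The farthest above the monolayers was ENSGALG00000046632, with 5842 counts (157 CPM) in subconfluent cells and 17, 36 and 45 counts in monolayers 1 to 3, followed by ENSGALG00000037738, with 1663 counts in subconfluent cells and 3, 14 and 13 counts in monolayers. Neither was called by edgeR (adjusted p = 0.0642 and 0.0891). The farthest below was ENSGALG00000011806, with 2 counts in subconfluent cells and 1069, 2402 and 1225 counts in monolayers (log2 fold change -9.67 ± 1.12, edgeR adjusted p = 0.0327). ENSGALG00000044940 had 3 counts in subconfluent cells and 482, 915 and 547 counts in monolayers (adjusted p = 0.0370). Both of these fell, but the calls were lost in a fit of only the 4 libraries (adjusted p = 0.0745 for each), with the title code as a block (0.0748 and 0.0811), without monolayer 2 (0.105 for each) and without monolayer 3 (0.166 and 0.167).

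RNA of fibroblasts, which could enter a keratinocyte culture, was checked with 14 features that had at least 100 CPM in the fibroblast library and at most 1 CPM in every skin equivalent. Their summed level was 71.6 CPM in subconfluent cells, against 201, 165 and 164 CPM in monolayers 1 to 3, and 2945 CPM in fibroblasts. The subconfluent library was above every monolayer for 4 of the 14 and below every monolayer for 6, with 1 at 0 counts. Over all features with a mean of at least 1 CPM over the 4 compared libraries, 39.7% lay above and 35.5% below. The part of fibroblast RNA in the results was not tested.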

How the data were processed

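RNA-seq counts of 8 libraries were used, and 4 of them were compared. As deposited, the tables give raw counts for each feature as whole numbers, with no normalisation by the authors. A further 4 rows count fragments assigned to no gene (29.8% of fragments in the subconfluent library and 29.2% to 31.0% in monolayers) and stayed out of library sizes and tests. STAR 2.6.1a, RSEM, bcl2fastq 2.19.1.403 and DESeq2 1.22.2 appear, with no role, per the submitters' processing notes. The build, annotation and strand setting behind the counts were not given, so overlapping and antisense genes are uncertain. The test was the quasi-likelihood test of edgeR 4.0.16 (R 4.3.3) on all 8 libraries with TMM scaling, its default filter and Benjamini-Hochberg adjustment at 0.05, checked on simulated data. All simulated libraries were drawn with the same spread, so that check could not test the assumption made for the lone subconfluent library. Each standard error is the log2 fold change over the square root of F. DESeq2 1.42.0 and limma-voom (limma 3.58.1) were alternatives. Ratio intervals are exact 95% intervals and cover counting error only. With 1 against 3 libraries the smallest p of an exact permutation test is 0.25 one-sided and 0.5 two-sided by doubling, so shares are given without a test.

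Named features were those past the test with mean log2 CPM 1 or more (up to 12 in each direction), those past the 4-fold rule, the 2 most abundant of each family or list, and a fixed set; Krt20, Krt23, Krt80, Krt78L3, Krt9L3, CBP59-K, CBP62-K, CBP63-K and Krt5L1-2 were added after their values were seen. Members, lists and tests were chosen with earlier results of these data known. Of 14 lists of gene symbols, 10 matched no deposited name. The list of keratin symbols matched 10 names, of which edgeR called 0 and DESeq2 4, all lower. Over all features DESeq2 called 623 of 13356 higher and 1201 lower. That list matched none of the Krt5L, Krt14L, Krt9L or Krt78L names. Among all keratins DESeq2 called 6 higher and 5 lower. The basal layer list matched Krt15 alone, and the defence list matched IL1RN and IL36RN. The reference gene table (assembly GRCg7b) pairs 0 genes with an Ensembl identifier.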

Additional observations from a re-analysis of the deposited data

Results flagged for a closer look

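In 3 of the 4 rows for fragments given to no gene, which no comparison used, the subconfluent library was above every monolayer. Unmapped fragments made up 6.47% in subconfluent cells, against 4.19% ± 0.549 in monolayers (SD, n = 3). Multimapping fragments made up 5.46% in subconfluent cells and 4.53% ± 0.0752 in monolayers. Ambiguous fragments made up 0.635% in subconfluent cells and 0.538% ± 0.0465 in monolayers. The remaining row, of fragments that met no feature, ran the other way. It held 17.3% in subconfluent cells, below every monolayer (21.0% ± 1.47). Multimapping fragments are those that near-identical members of gene families such as keratins lose, and their part in the keratin values was not tested.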

How the results depend on the processing

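With 1 subconfluent library the counts of called features depended on the setting. Against 91 higher and 109 lower features, DESeq2 called 623 and 1201, limma-voom 155 and 208, and a filter of at least 50 counts in 1 of the 4 libraries 192 and 199. Scaling by total count called 34 higher. A fit of only the 4 libraries called 0 and 0 (3337 unadjusted p-values under 0.05), and leaving out 1 monolayer gave 0 to 270 higher and 0 to 413 lower. Deviations from the group means correlated between monolayers and skin equivalents at -0.04, -0.11 and 0.15 for codes 20, 34 and 56. Skin equivalent 2 correlated best with monolayer 1 (0.17). With 3 libraries in each group, these values cannot show if a shared code marks a shared origin. With the code as a replicate block among 7 keratinocyte libraries, 0 and 0 features were called (3561 unadjusted), against 78 and 119 without the block. The number past the range rule was 803 higher and 794 lower at 2-fold, 16 and 99 at 8-fold, and 54 and 113 with at least 500 counts. Without the 10 most abundant features in the total, the share difference between subconfluent cells and monolayers was 2.30 percentage points for Krt5L (from 2.08), 0.0863 for Krt9L (from 0.0782) and 3.05 for the basal-type keratins (from 2.75). Only the total was reduced, and the family counts kept members that were among those 10, such as Krt5L2. A smaller total raises every share, so these values are no separate check of the differences. Signs turned for features near equality: Krt8 (0.07 with limma-voom, 0.31 with the block, -0.49 to 0.22 without 1 monolayer, 0.91 against monolayer 1), EDQL-EDC (-0.32 with the block, -0.04 to 1.03 without 1 monolayer, -0.55 against monolayer 1), IL36RN (-0.37 with the block, -0.30 to 1.58 without 1 monolayer, -0.95 against monolayer 1), EPPKL1 (0.51) and CBP14-C (-0.32), both against monolayer 1. The comparison with monolayer 1 alone has no test and gives no count of calls. Of the features picked for the text by the rule above, 2 got no adjusted p from DESeq2.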

Other observations

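The 94 features at least 4-fold above every monolayer differed in their levels in the other cultures. In 24 of them every skin equivalent was above the subconfluent library, and in 56 every skin equivalent was below it. The 94 were chosen for a high level in the subconfluent library, which by itself favours lower skin equivalents. The fibroblast library was under 1 CPM for 41 of the 94. Of the 232 features at least 4-fold below every monolayer, 53 were under 1 CPM in every skin equivalent and 147 were at or above 1 CPM in every skin equivalent. Fibroblasts were at or above 1 CPM for 157 of the 232. Shares over all features were not taken for these counts, so they are descriptions only.

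Proportions within families lay outside the monolayer range for Krt78L4 over Krt78L3, as for Krt9L1 over Krt9L3 described above. They lay within it for the other pairs of keratins given here. Counts of Krt78L4 divided by those of Krt78L3 were 5.68 in subconfluent cells, against 2.61, 2.14 and 1.31 in monolayers. The skin equivalents had 0.00160, 0.0562 and 0.00419. Counts of Krt14L1 divided by those of Krt14L2 were 1.29 in subconfluent cells and 1.61, 1.16 and 1.44 in monolayers, so the subconfluent value was within their range. Krt5L3 over Krt5L1 was 0.583 in subconfluent cells and 0.877, 0.457 and 0.273 in monolayers, likewise within the range, as was Krt5L2 over Krt5L1, at 1.84 in subconfluent cells and 5.42, 1.57 and 1.55 in monolayers.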
